A study of Mus musculus with 6 samples.

Results

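The 10 transcripts described here encode enzymes of the methionine cycle and of the reactions joined to it in liver. They are Mat1a, Mat2a, Gnmt, Pemt, Ahcy, Bhmt, Bhmt2, Cbs, Cth and Shmt1, taken by gene symbol from a table of 25102 genes. All 10 were in the table, each in 1 row, and all 10 were tested, since each averaged 1 FPKM or more over the 6 samples. FPKM is the number of fragments mapped to a gene, corrected for gene length and for how many mapped in that library. The libraries were poly(A) RNA from 6 livers of male C57BL/6J mice that were 2 weeks old at the start, 3 from the DEN+CCl4 group and 3 from the Control group. DEN+CCl4 mice received the carcinogen diethylnitrosamine (DEN) once at 1 mg/kg by intraperitoneal injection. About 6 weeks later they received the hepatotoxin carbon tetrachloride (CCl4) at 0.2 mL/kg, injected 2 times per week for at most 14 weeks. What Control mice were injected with, the age at collection and whether a piece of liver held tumour are not stated in the labels. The labels number the samples but name no animals, so each p-value reflects only how far these samples spread, and that spread may be technical.

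As background, methionine adenosyltransferases join methionine and ATP to S-adenosylmethionine, the methyl donor of most cellular methylation. Its use leaves S-adenosylhomocysteine, which is split to homocysteine. Homocysteine is then either remethylated to methionine, with betaine or methylfolate as the donor, or passed through transsulfuration to cysteine. Adult hepatocytes carry most of the body's capacity for this cycle and express a liver form of methionine adenosyltransferase, the product of Mat1a, while most other cells use the product of Mat2a. Mice that lack Mat1a or Gnmt are known to develop fatty liver and liver tumours.

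The 3 DEN+CCl4 livers were unlike each other. Transcripts encoded by mitochondria took 36.9%, 40.6% and 64.2% of all FPKM across DEN+CCl4 replicates 1 to 3, against 26.6% to 43.0% in the Control libraries. With nuclear copies of mitochondrial sequence added, the shares were 52.3%, 56.7% and 85.0%, against 38.1% to 62.1% in the Control libraries. DEN+CCl4 replicate 3 had 16447 genes above 0 FPKM, against 19260 to 20634 in the other libraries. In DEN+CCl4 replicate 3 the tested genes had a median of 1.19 FPKM, against 3.43 to 3.71 FPKM in Control libraries, and 83.9% of all tested genes were below every Control library. Values are therefore also given after median-ratio scaling, which divides a library by the median, over genes, of its ratio to the 6-library geometric mean. The divisor was 0.356 for DEN+CCl4 replicate 3 and 1.16 to 1.37 for the others. Hepatocyte transcripts were followed with 11 marker genes. Albumin (Alb) read 11750, 24460 and 7482 FPKM across DEN+CCl4 replicates 1 to 3, against 13750 to 23560 FPKM in Control libraries. The 11 markers summed to 28160, 56180 and 48580 scaled FPKM across DEN+CCl4 replicates 1 to 3, against 29930 to 42950 in Control libraries. Alb and Apoa1 made up most of each sum, so it does not show how the other markers stood.

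DEN+CCl4 liver, described in the labels as a hepatocellular carcinoma model, was compared with Control liver. Of the 10 members, 9 had a negative log2 fold change, against 74.4% of all tested genes (9 of 10 and 48.6% after scaling), and Bhmt, which remethylates homocysteine with betaine, had the lowest value relative to Control. The difference was carried by DEN+CCl4 replicates 2 and 3, while replicate 1 stayed near the Control livers. After scaling, 0, 8 and 10 of the 10 members lay below 50% of the Control mean across DEN+CCl4 replicates 1 to 3. For all tested genes the shares were 3.48%, 16.2% and 22.7%. No member passed the test across all genes (limma, Benjamini-Hochberg adjusted p from 0.0649 for Bhmt to 0.996 for Mat2a and Shmt1).

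In the same limma fit 0.645% of the 8528 tested genes were called lower and 0.833% higher at an adjusted p under 0.05. At an unadjusted p under 0.05, 5 of the 10 members were lower and 0 higher, against 5.07% and 2.53% of all tested genes. The median log2 fold change of the 10 members was -2.05, against -0.27 for all tested genes. After scaling these medians were -1.61 and 0.01, and again 0 members were called, as were 0% of all genes (6 members lower at an unadjusted p under 0.05, against 5.23% of all genes). Each fold change is DEN+CCl4 minus Control of log2(FPKM + 1), which understates the change of low genes. The calls depended on DEN+CCl4 replicate 1: without it limma called 5 members lower, Bhmt, Cth, Gnmt, Ahcy and Pemt, against 3.21% of 8468 genes tested, and with scaling 6, Bhmt2 added, against 4.32%. The sizes depended on DEN+CCl4 replicate 3, without which 0 members were called and the log2 fold changes of the 9 lay between -1.99 (Bhmt) and 0.14 (Shmt1). In bulk liver, fewer cells of a type and less RNA per cell cannot be told apart.

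**Figure D1:**
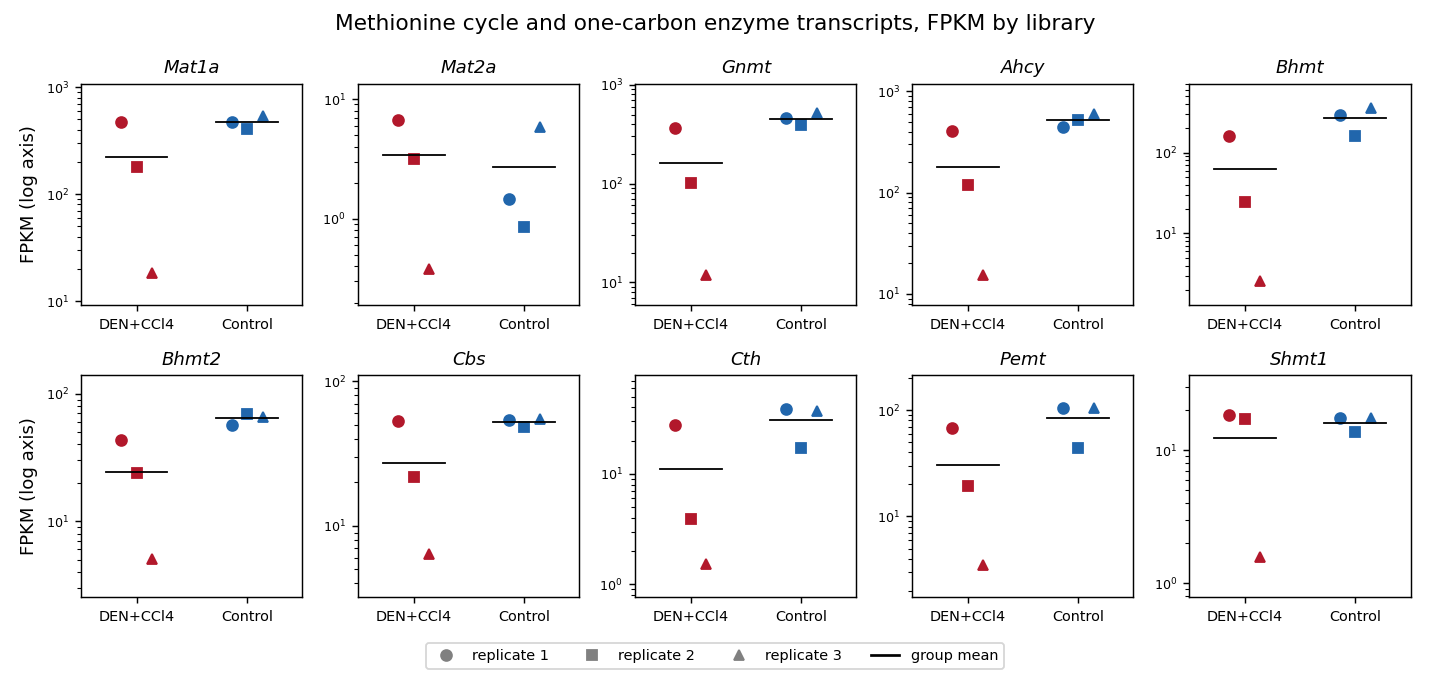
FPKM of each member (log axis) in the 3 DEN+CCl4 libraries (left, red) and the 3 Control libraries (right, blue), with the replicate number as the symbol and the group mean as a line. DEN+CCl4 replicate 3 is the lowest of the 6 libraries for all 10 members, and DEN+CCl4 replicate 1 lies within or close to the Control range for most.

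Mat1a encodes the catalytic subunit of the liver methionine adenosyltransferases (ENSMUSG00000037798, chr14:41105035-41124412, plus strand, GRCm38, protein-coding). Mat1a read 471, 179 and 18.3 FPKM across DEN+CCl4 replicates 1 to 3, against 469.8, 408 and 540.0 FPKM across Control replicates 1 to 3. DEN+CCl4 replicate 1 lay inside the Control range and the other 2 below it. The log2 fold change was -2.0 (SE 1.06, limma adjusted p = 0.710), and -1.53 (SE 0.73, limma adjusted p = 0.497) after scaling. Without DEN+CCl4 replicate 3 it was -0.69 (-0.85 with scaling), and with array weights, which let limma weight each library, it was -0.37. In scaled FPKM, DEN+CCl4 replicates 1 to 3 stood at 0.934, 0.331 and 0.130 times the Control mean. Mat1a still ranked high in every library, above 95.1% of tested genes in DEN+CCl4 replicate 3 and above 98.2% to 98.8% in the other 5.

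Mat2a encodes the catalytic subunit used outside the adult liver and in proliferating hepatocytes (ENSMUSG00000053907, chr6:72432799-72439558, minus strand). It was the lowest of the 10 in all 6 libraries, at 6.72, 3.14 and 0.38 FPKM across DEN+CCl4 replicates 1 to 3, against 1.45, 0.85 and 5.87 FPKM across Control replicates 1 to 3. The groups overlapped, with Control replicate 3 high among the Control libraries. The log2 fold change was 0.17 (SE 0.52, limma adjusted p = 0.996), the one positive value among the 10, and it turned to -0.40 without DEN+CCl4 replicate 1 and to -0.22 without Control replicate 2. Particl, a noncoding transcript on the opposite strand whose exons overlap those of Mat2a, was listed at 0.16, 0.39 and 0.29 FPKM across DEN+CCl4 replicates 1 to 3, against 0.38 to 0.65 FPKM in Control libraries. Whether the counting used strand is not stated in the labels, so reads of the 2 genes cannot be told apart, and in DEN+CCl4 replicate 3 their levels are alike.

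A ratio of 2 transcripts within a library does not depend on the library's scale. The Mat2a level was 1.43%, 1.75% and 2.08% of the Mat1a level across DEN+CCl4 replicates 1 to 3, against 0.309%, 0.209% and 1.09% across Control replicates 1 to 3. All 3 DEN+CCl4 libraries thus lay above all 3 Control libraries, Control replicate 3 being the nearest. In DEN+CCl4 replicate 3 the ratio rests on Mat2a at 0.38 FPKM. Reads of Particl, at 0.29 FPKM there, cannot be told apart from those of Mat2a. The log2 ratio averaged -5.84 ± 0.29 in DEN+CCl4 liver and -7.91 ± 1.24 in Control liver (SD, n = 3 each), a difference of 2.08. The exact two-sided permutation test gave p = 0.1, the smallest that 3 against 3 allows (0.15 adjusted over the 3 exact tests made). The 2 sides of the ratio differed by library: in DEN+CCl4 replicate 1 Mat2a was above all Control libraries and Mat1a at its Control level, and in replicates 2 and 3 Mat1a was low. Mat2b, the regulatory partner of the Mat2a product, was at 1.03, 1.08 and 0.42 FPKM in DEN+CCl4 liver, against 1.59, 1.47 and 1.42 FPKM in Control liver (log2 fold change -0.46, SE 0.40, limma adjusted p = 0.996).

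Gnmt and Pemt use S-adenosylmethionine. Gnmt, glycine N-methyltransferase, methylates glycine to sarcosine and so disposes of surplus methyl groups (ENSMUSG00000002769, chr17:46725664-46729168, minus strand). It read 369, 102 and 11.7 FPKM across DEN+CCl4 replicates 1 to 3, against 465, 389 and 514 FPKM across Control replicates 1 to 3. Every DEN+CCl4 library was below every Control library. This gave a log2 fold change of -2.53 (SE 1.06, limma adjusted p = 0.379), and -2.07 (SE 0.78) after scaling, and -1.22 without DEN+CCl4 replicate 3. In the Control livers Gnmt and Mat1a stood almost level, with Gnmt at 98.9%, 95.4% and 95.2% of Mat1a. In DEN+CCl4 replicates 1, 2 and 3 it was at 78.5%, 57.0% and 64.1% of Mat1a, so that this ratio was below every Control liver in all 3, replicate 1 included. The ratio was not among those planned for a test and is given without one.

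Pemt, phosphatidylethanolamine N-methyltransferase, makes phosphatidylcholine by methylation in the liver (ENSMUSG00000000301, chr11:59970614-60046489, minus strand). It read 68.4, 19.5 and 3.50 FPKM across DEN+CCl4 replicates 1 to 3, against 106, 44.3 and 105 FPKM across Control replicates 1 to 3. Control replicate 2 was well below the other Control libraries, and DEN+CCl4 replicate 1 lay between them. The log2 fold change was -2.11 (SE 0.94, limma adjusted p = 0.474), and -1.70 (SE 0.67) after scaling, and -1.09 without DEN+CCl4 replicate 3. Among the other 9 members the closest in pattern was Cth, which was likewise lowest among the Control livers in Control replicate 2.

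Ahcy encodes S-adenosylhomocysteine hydrolase, which releases homocysteine and removes the product that inhibits methyltransferases (ENSMUSG00000027597, chr2:155059310-155074497, minus strand). It read 404, 120.4 and 15.5 FPKM across DEN+CCl4 replicates 1 to 3, against 447, 523 and 597 FPKM across Control replicates 1 to 3. The groups did not overlap. Its log2 fold change was -2.48 (SE 1.06, limma adjusted p = 0.418), and -2.02 (SE 0.74) after scaling, and -1.23 without DEN+CCl4 replicate 3. Ahcy has near-identical copies, so its own level is uncertain: 68.7% of its 31-base words occur in transcripts of Gm4737, and 35.3% in those of the pseudogene Gm9826. Gm4737 was listed at 193, 57.5 and 9.03 FPKM across DEN+CCl4 replicates 1 to 3, against 221, 239 and 291 FPKM across Control replicates 1 to 3. That is 47.8%, 47.7% and 58.4% of Ahcy in DEN+CCl4 liver and 49.4%, 45.6% and 48.7% in Control liver. DEN+CCl4 replicate 3 was the highest of the 6 in this ratio, and the others lay close together.

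Bhmt and Bhmt2 are neighbours on chromosome 13, on the same strand and 17758 bases apart. Both encode enzymes that remethylate homocysteine, with betaine as the donor for Bhmt and S-methylmethionine for Bhmt2. Bhmt (ENSMUSG00000074768, chr13:93616675-93637961, minus strand) read 162, 24.3 and 2.59 FPKM across DEN+CCl4 replicates 1 to 3, against 289, 159.8 and 357 FPKM across Control replicates 1 to 3. DEN+CCl4 replicate 1 was just above Control replicate 2, the lowest Control library, and the other 2 were far below it. The log2 fold change of -3.38 was the lowest of the 10 (SE 1.02, limma adjusted p = 0.0649), and it was -2.99 (SE 0.95, limma adjusted p = 0.453) after scaling. Bhmt passed the threshold when the filter was raised to a mean of 5 FPKM (limma adjusted p = 0.0414, with 1.6% of 3321 genes called lower) and without DEN+CCl4 replicate 1 (log2 fold change -4.74, limma adjusted p = 0.000259). It did not without DEN+CCl4 replicate 3 (-1.99, limma adjusted p = 0.614) or with array weights (-1.40, limma adjusted p = 0.125). In scaled FPKM, DEN+CCl4 replicates 1, 2 and 3 were at 0.570, 0.0794 and 0.0326 times the Control mean. Of the 31-base words of Bhmt, 27.1% occur in transcripts of Gm5096. Gm5096 was listed at 8.93%, 9.38% and 30.1% of Bhmt across DEN+CCl4 replicates 1 to 3, against 10.9%, 6.97% and 10.2% across Control replicates 1 to 3.

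Bhmt2 (ENSMUSG00000042118, chr13:93655720-93674302, minus strand) read 43.7, 24.0 and 5.08 FPKM across DEN+CCl4 replicates 1 to 3, against 56.9, 69.5 and 66.2 FPKM across Control replicates 1 to 3. The groups did not overlap, and the Control values were close together. Its log2 fold change was -1.78 (SE 0.92, limma adjusted p = 0.686), and -1.35 (SE 0.42) after scaling, and -0.96 without DEN+CCl4 replicate 3. Bhmt stood at 372%, 102% and 51.0% of Bhmt2 across DEN+CCl4 replicates 1 to 3, against 509%, 230% and 539% across Control replicates 1 to 3. The neighbouring genes therefore did not keep 1 ratio: Bhmt was the higher of the pair in all Control livers and the lower in DEN+CCl4 replicate 3. This ratio overlapped between the groups, since DEN+CCl4 replicate 1 was above Control replicate 2.

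The RefSeq promoters of Bhmt, Bhmt2 and Mat2a (GRCm38.p6) are shown because Bhmt and its neighbour differed in how low they were and Mat2a was the member with no lower mean. Each runs 5′ to 3′ along the gene's own strand over 300 bases, with 50 after the RefSeq start. For Bhmt the start of the gene as given above, 93637961, falls farther upstream within the window. For Bhmt2 and Mat2a the gene start nearly coincides with the RefSeq start. Capitals mark matches, on either strand, to TATAAA of the TATA box, CCAAT of the CCAAT box, GGGCGG of the GC box, CACGTG of the E-box, AGGTCA as bound by nuclear receptors, or TTGCGCAA as bound by C/EBP factors. The Bhmt window is chr13:93637709-93638008, that of Bhmt2 is chr13:93674253-93674552 and that of Mat2a is chr6:72439507-72439806, all on the minus strand.
Bhmt: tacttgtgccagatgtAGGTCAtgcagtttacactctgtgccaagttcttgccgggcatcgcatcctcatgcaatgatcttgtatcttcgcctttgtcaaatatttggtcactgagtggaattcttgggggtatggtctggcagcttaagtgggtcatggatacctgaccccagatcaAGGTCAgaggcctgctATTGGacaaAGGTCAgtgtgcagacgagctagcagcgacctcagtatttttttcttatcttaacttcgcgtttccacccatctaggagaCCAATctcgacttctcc
Bhmt2: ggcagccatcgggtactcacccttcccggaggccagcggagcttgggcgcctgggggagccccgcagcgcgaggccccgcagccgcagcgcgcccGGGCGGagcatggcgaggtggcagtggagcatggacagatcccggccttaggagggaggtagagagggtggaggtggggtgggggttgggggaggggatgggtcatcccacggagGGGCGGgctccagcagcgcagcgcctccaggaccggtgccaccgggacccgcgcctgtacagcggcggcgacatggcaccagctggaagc
Mat2a: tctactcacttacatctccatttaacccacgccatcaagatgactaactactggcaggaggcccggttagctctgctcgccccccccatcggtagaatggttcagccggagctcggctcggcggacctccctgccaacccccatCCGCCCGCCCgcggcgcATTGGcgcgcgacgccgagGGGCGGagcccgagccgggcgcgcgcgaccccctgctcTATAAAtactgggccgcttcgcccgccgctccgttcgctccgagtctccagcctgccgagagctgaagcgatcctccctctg
The Bhmt window holds 8 CG dinucleotides, against 26 in Bhmt2 and 34 in Mat2a, where the median of 27025 promoters of this length is 7. It holds 3 matches to AGGTCA, which 16.0% of all promoters hold at least once, and neither Bhmt2 nor Mat2a holds it. Gnmt and Ahcy hold it too, which makes 3 of the 8 members with a promoter in the table. Bhmt2 and Mat2a hold GGGCGG, as do 5 of the 8 and 35.9% of all promoters, and Bhmt does not. Mat2a alone of the 8 holds TATAAA, which 14.2% of all promoters hold. The word CCAAT, in 37.9% of all promoters, is in 7 of the 8. CACGTG is in 1 of the 8 (Cbs), against 7.24% of all promoters, and TTGCGCAA is in 0 of the 8, against 0.185% of all promoters. These are matches of letters only, and no binding was measured.

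Cbs and Cth carry homocysteine to cysteine. Cbs, cystathionine beta-synthase, makes the first, committed step (ENSMUSG00000024039, chr17:31608894-31637238, minus strand). It read 52.9, 22.0 and 6.44 FPKM across DEN+CCl4 replicates 1 to 3, against 54.1, 48.4 and 54.9 FPKM across Control replicates 1 to 3. DEN+CCl4 replicate 1 lay inside the narrow Control range and the other 2 below it. For Cbs the log2 fold change was -1.35 (SE 0.92, limma adjusted p = 0.921), and -0.91 (SE 0.44) after scaling. It was -0.60 without DEN+CCl4 replicate 3, -2.03 when DEN+CCl4 replicate 1 was left out and -0.21 with array weights.

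Cth, cystathionine gamma-lyase, releases cysteine and also makes hydrogen sulfide (ENSMUSG00000028179, chr3:157894248-157925077, minus strand). It read 27.4, 3.88 and 1.53 FPKM across DEN+CCl4 replicates 1 to 3, against 38.9, 17.2 and 36.8 FPKM across Control replicates 1 to 3. DEN+CCl4 replicate 1 lay among the Control libraries. For Cth the log2 fold change was -2.10 (SE 0.79, limma adjusted p = 0.249), the second smallest adjusted p of the 10, and -1.73 (SE 0.68) after scaling. It was -1.36 without DEN+CCl4 replicate 3. Cth stood at 51.9%, 17.7% and 23.8% of Cbs across DEN+CCl4 replicates 1 to 3, against 71.9%, 35.6% and 67.1% across Control replicates 1 to 3. Control replicate 2 was lower in this ratio than DEN+CCl4 replicate 1, so the groups overlapped.

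Shmt1, the cytosolic serine hydroxymethyltransferase, moves the serine carbon to folate (ENSMUSG00000020534, chr11:60788104-60811718, minus strand). It read 18.3, 17.4 and 1.57 FPKM across DEN+CCl4 replicates 1 to 3, against 17.5, 13.7 and 17.4 FPKM across Control replicates 1 to 3. DEN+CCl4 replicate 1 was above the Control range, by less than 1 FPKM, replicate 2 lay inside it, and replicate 3 alone was below it. Over the 3 libraries the log2 fold change was -0.82 (SE 0.77, limma adjusted p = 0.996), -0.47 (SE 0.44) after scaling, 0.14 without DEN+CCl4 replicate 3 and -1.31 when DEN+CCl4 replicate 1 was left out. In scaled FPKM, DEN+CCl4 replicates 1, 2 and 3 were at 1.06, 0.935 and 0.325 times the Control mean. Shmt2, the mitochondrial form, read 82.1, 53.3 and 9.14 FPKM in DEN+CCl4 liver, against 71.0, 82.6 and 85.6 FPKM in Control liver (log2 fold change -1.17, SE 0.97, limma adjusted p = 0.989). Smcr8 overlaps exons of Shmt1 on the opposite strand and was at 1.57, 1.63 and 0.23 FPKM in DEN+CCl4 liver, against 1.10 to 1.78 FPKM in Control liver.

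**Figure D2:**
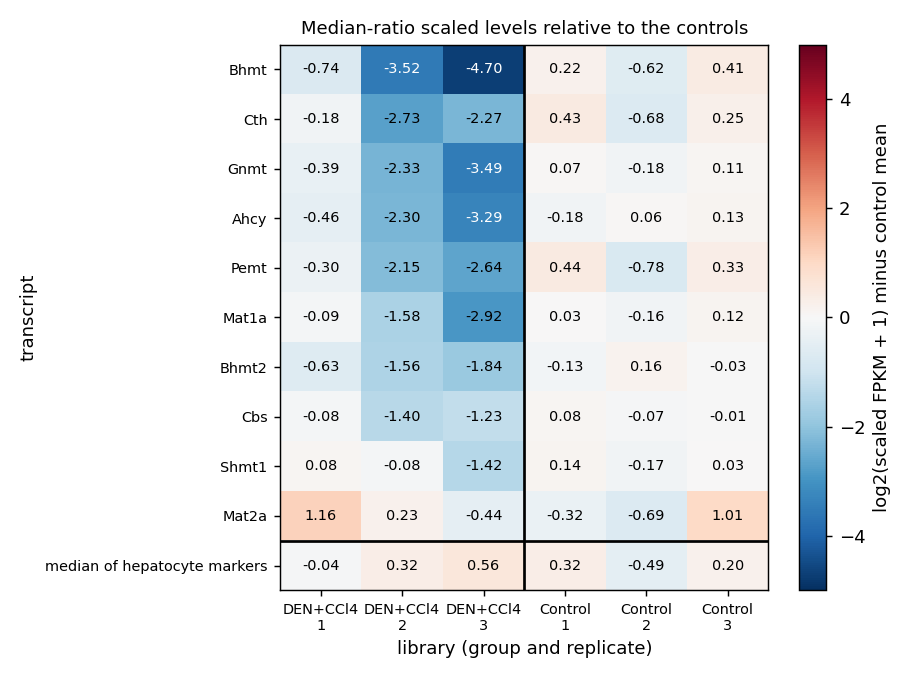
Each cell gives log2(scaled FPKM + 1) minus the mean of the 3 Control libraries, for the 10 members (rows) in the 3 DEN+CCl4 libraries (left) and 3 Control libraries (right), with the median of 11 hepatocyte markers in the last row. Blue is lower and red higher than the Control mean. In DEN+CCl4 replicate 3 Bhmt reaches -4.70 and the median of the 10 members is -2.45. The 11 hepatocyte markers run from -2.51 (Ttr) to 2.89 (Trf) there. Their median of 0.56 is no measure of hepatocyte content.

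The members differed among themselves in how low they were. In the scaled heat map of differences from the Control mean, DEN+CCl4 replicate 1 spanned -0.74 (Bhmt) to 1.16 (Mat2a), with a median of -0.24. Replicate 2 spanned -3.52 (Bhmt) to 0.23 (Mat2a), with a median of -1.87. Replicate 3 spanned -4.70 (Bhmt) to -0.44 (Mat2a), with a median of -2.45. Cth and Cbs were lower in replicate 2 than in replicate 3, and for the other 8 the lowest DEN+CCl4 value was that of replicate 3. Scaling left 5 members with all 3 DEN+CCl4 libraries below all Control libraries, Gnmt, Ahcy, Bhmt, Bhmt2 and Cbs, against 6.52% of all tested genes. As deposited there were 3, Gnmt, Ahcy and Bhmt2, against 5.35%.

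Bhmt and Ahcy were also set against Mat1a within each library. Bhmt stood at 34.5%, 13.6% and 14.2% of Mat1a across DEN+CCl4 replicates 1 to 3, against 61.6%, 39.2% and 66.0% across Control replicates 1 to 3. Ahcy stood at 85.8%, 67.2% and 84.6% of Mat1a in DEN+CCl4 liver, against 95.1%, 128% and 111% in Control liver. For Shmt1 the values were 3.90%, 9.70% and 8.59% of Mat1a in DEN+CCl4 liver, against 3.72%, 3.36% and 3.22% in Control liver. The groups did not overlap in any of these 3 ratios. They share Mat1a as the denominator, as does the Gnmt ratio above, and were chosen after the values were seen, so they are given without a test.

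**Figure D3:**
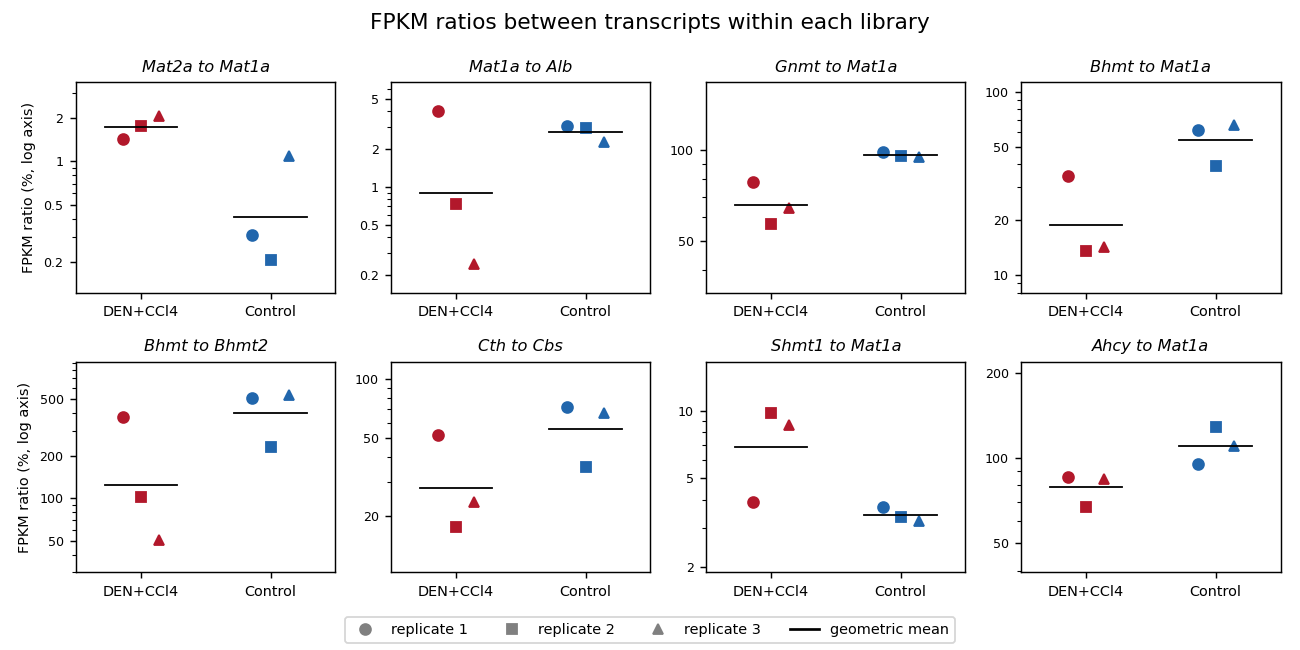
FPKM ratios within each library, in percent on log axes, for the 3 DEN+CCl4 libraries (left, red) and 3 Control libraries (right, blue), with the replicate number as the symbol and the geometric mean as a line. Mat2a to Mat1a and Shmt1 to Mat1a are higher in all DEN+CCl4 libraries than in all Control libraries, and Gnmt, Bhmt and Ahcy to Mat1a are lower.

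By level, the order of the members was similar in all livers. Mat1a, Ahcy and Gnmt were the 3 highest in every library, at 389 to 597 FPKM in Control liver, and their Control ranges overlapped. Within libraries Mat1a was above Gnmt in all 6, by a narrow margin in Control liver, while Ahcy was above Mat1a in Control replicates 2 and 3 only. Bhmt came next in every library but DEN+CCl4 replicate 3, where Cbs, Bhmt2 and Pemt also exceeded its 2.59 FPKM. The Control range of Pemt overlapped those of Bhmt2 and Cbs, which did not overlap each other. Cth and Shmt1 also overlapped in Control liver, and Cth was below Shmt1 in DEN+CCl4 replicates 2 and 3 and above it in DEN+CCl4 replicate 1 and all Control livers. Summed over the 10, the level was 1623, 516 and 66.5 FPKM across DEN+CCl4 replicates 1 to 3, against 1945, 1673 and 2295 FPKM across Control replicates 1 to 3. The sums did not overlap, by a narrow margin for DEN+CCl4 replicate 1. On the log2 scale the difference was -2.36 (exact two-sided permutation p = 0.1, the smallest 3 against 3 allows, 0.15 adjusted over 3 tests). It was -1.09 without DEN+CCl4 replicate 3.

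Hepatocyte markers differed among themselves, and their median is no measure of hepatocyte content. The median log2 fold change was -0.23, against -0.27 for all tested genes, and 0.25 after scaling, with 0 of 11 called by limma in either direction and 0 at an unadjusted p under 0.05. In the scaled difference from the Control mean in DEN+CCl4 replicate 3 they ran from -2.51 (Ttr) and -1.59 (Apoc3) to 1.65 (Fgb) and 2.89 (Trf). Of the 11, Ttr, the transthyretin gene, was the lowest, at 4130, 2103 and 219 FPKM in DEN+CCl4 liver, against 4175, 2891 and 6045 FPKM in Control liver (log2 fold change -1.75, SE 0.93, limma adjusted p = 0.710). Mat1a stood at 4.01%, 0.733% and 0.244% of Alb across DEN+CCl4 replicates 1 to 3, against 3.07%, 2.96% and 2.29% across Control replicates 1 to 3. DEN+CCl4 replicate 1 was above the Control range and the other 2 below it. The log2 ratio differed by -1.62 (exact two-sided permutation p = 0.4, the smallest possible being 0.1), by -2.70 without DEN+CCl4 replicate 1 and by -0.68 without DEN+CCl4 replicate 3.

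Markers of other liver cells were also summed. Stellate cell and myofibroblast markers (10 genes) summed to 19.1, 31.3 and 52.4 scaled FPKM across DEN+CCl4 replicates 1 to 3, against 8.69 to 12.7 in Control liver. Lymphocyte and neutrophil markers (9 genes) summed to 15.0, 8.25 and 65.9, against 4.23 to 6.34, and S100a8, a neutrophil granule gene, was the 1 marker called higher (log2 fold change 1.63, limma adjusted p = 0.0336, or 0.462 after scaling). Cholangiocyte markers (7 genes) summed to 11.4, 25.1 and 71.3, against 7.31 to 14.1, mostly Spp1, which other cells also make. Sox9 read 0.48, 2.98 and 1.06 FPKM in DEN+CCl4 liver, against 0.26, 0.63 and 0.22 FPKM in Control liver. Krt19 read 0.86, 3.06 and 0.13 FPKM in DEN+CCl4 liver, against 0.93, 0.81 and 0.50 FPKM in Control liver. Krt7, Epcam and Cldn4 were at or below 0.49 FPKM in all 6 libraries, with Cldn4 at 0 in DEN+CCl4 replicate 3 and all Control libraries. Endothelial markers (7 genes) summed to 13.7, 16.4 and 20.2, against 8.10 to 16.4, and macrophage markers (9 genes) to 53.8, 29.6 and 97.1, against 32.8 to 99.1. No marker was at 0 in every library. The part of these cells in the lower levels of the members was not tested.

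For each member the tested genes with the most similar profile were looked up, by Euclidean distance over the 6 scaled log2 values relative to the Control mean, among 8522 genes. Gnmt was nearest to another member, Ahcy (distance 0.40 log2 units), the smallest distance between any pair of the 10. Mat1a was nearest to Apoa2, an apolipoprotein of high density lipoprotein (0.37), and to the retinol dehydrogenase gene Rdh7 (0.39). Ahcy was nearest to the organic anion carrier gene Slco2b1 (0.26) and to Baat (0.31), which joins bile acids to glycine or taurine. Bhmt was nearest to Ang, an angiogenin gene, and to the male-biased steroid dehydrogenase gene Hsd3b5 (0.66 each). Bhmt2 was nearest to Etnk2, an ethanolamine kinase gene (0.29), Cbs to the prolactin receptor gene Prlr (0.20), Cth to Aldh1a7 (0.21) and Pemt to Akr1c6 (0.33). Shmt1 was nearest to Hes6 (0.14). Mat2a had the most distant neighbours, Slc2a1, a glucose carrier gene, at 0.92 and Nrep at 1.00. With 6 libraries many genes share a profile, and these distances are descriptions.

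Of the other genes of one-carbon metabolism, 87 in 7 lists were in the table and 66 were tested. None was called by limma in either direction (smallest adjusted p = 0.130), with 8 lower and 2 higher at an unadjusted p under 0.05, against 5.07% and 2.53% of all tested genes. Of the 66, 56 (84.8%) had a negative log2 fold change, against 74.4% of all tested genes, and after scaling 45 (68.2%), against 48.6%. Their median was -0.66 (-0.36 after scaling), against -0.27 (0.01) for all tested genes.

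The list nearest to the cycle holds methylfolate-dependent remethylation and the partners of the methionine adenosyltransferases and hydrolase. Of its 7 genes 3 were tested, and the methionine synthase gene Mtr was at 0.17 to 0.54 FPKM in all 6 libraries, below the filter. Adk, adenosine kinase, which removes the adenosine released by Ahcy, read 19.3, 9.36 and 3.16 FPKM across DEN+CCl4 replicates 1 to 3, against 22.3, 16.5 and 26.7 FPKM across Control replicates 1 to 3 (log2 fold change -1.23, SE 0.79, limma adjusted p = 0.872). Ahcyl1, a relative of Ahcy, read 6.72, 4.0 and 0.85 FPKM in DEN+CCl4 liver, against 6.09, 5.18 and 6.87 FPKM in Control liver.

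Of 21 folate genes 10 were tested, 0 were called, and 1 was lower at an unadjusted p under 0.05, Slc46a1, against 5.07% of all tested genes. The log2 fold change was negative in 10 of 10, where 74.4% of all tested genes were negative, and in 9 of 10 after scaling, against 48.6%. The median was -0.91 (-0.61 after scaling), against -0.27 (0.01) for all tested genes. Aldh1l1, which oxidises formyl-folate, read 160.3, 39.8 and 14.0 FPKM across DEN+CCl4 replicates 1 to 3, against 191, 133 and 189 FPKM across Control replicates 1 to 3 (log2 fold change -1.88, SE 1.02, limma adjusted p = 0.721). Ftcd, of histidine breakdown, read 144, 147 and 20.2 FPKM in DEN+CCl4 liver, against 113, 247 and 179 FPKM in Control liver (-1.16, SE 1.03, limma adjusted p = 0.996). Replicates 1 and 2 of DEN+CCl4 lay in the Control range for Ftcd, and for Aldh1l1 only replicate 1 did.

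All 15 genes of choline and glycine carbon were tested and 0 were called, with 2 lower (Dmgdh and Sardh) and 1 higher (Chka) at an unadjusted p under 0.05. Among all tested genes 5.07% were lower and 2.53% higher at that level. Dmgdh and Sardh, named after their values were seen, oxidise the dimethylglycine made by Bhmt and the sarcosine made by Gnmt. Dmgdh read 36.9, 7.88 and 1.54 FPKM across DEN+CCl4 replicates 1 to 3, against 43.6, 35.3 and 60.5 FPKM across Control replicates 1 to 3 (log2 fold change -2.29, SE 0.85, limma adjusted p = 0.232). Sardh read 39.4, 20.1 and 4.57 FPKM in DEN+CCl4 liver, against 80.4, 38.2 and 75.1 FPKM in Control liver (-1.89, SE 0.91, limma adjusted p = 0.591). Pipox, another sarcosine-oxidising enzyme gene, read 71.0, 33.5 and 5.01 FPKM in DEN+CCl4 liver, against 67.0, 81.2 and 80.8 FPKM in Control liver. Agxt, a glyoxylate aminotransferase gene, read 49.6, 29.6 and 14.0 FPKM in DEN+CCl4 liver, against 79.2, 48.4 and 98.8 FPKM in Control liver.

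Of the small-molecule methyltransferases 9 were tested, 0 called, and 2 were lower at an unadjusted p under 0.05, Inmt and Nnmt. Among all tested genes 5.07% were lower at that level. Inmt, indolethylamine N-methyltransferase, read 315, 49.0 and 1.09 FPKM across DEN+CCl4 replicates 1 to 3, against 208, 167 and 405 FPKM across Control replicates 1 to 3 (log2 fold change -2.92, SE 1.05, limma adjusted p = 0.195). Mettl7b, the most abundant of the list, read 638, 235 and 20.8 FPKM in DEN+CCl4 liver, against 553, 415 and 633 FPKM in Control liver (-1.82, SE 1.06, limma adjusted p = 0.794). For both, DEN+CCl4 replicate 1 lay within or above the Control range, where Gnmt lay below it.

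Beyond Cbs and Cth, 13 genes of cysteine and sulfur were tested, with 0 called and 2 lower at an unadjusted p under 0.05, Suox and Got1. Among all tested genes 5.07% were lower at that level. The median log2 fold change of the 13 was -1.09 (-0.73 after scaling), against -0.27 (0.01) for all tested genes. Cdo1, cysteine dioxygenase, read 433.5, 149.9 and 84.9 FPKM across DEN+CCl4 replicates 1 to 3, against 542, 424 and 581 FPKM across Control replicates 1 to 3 (log2 fold change -1.53, SE 1.05, limma adjusted p = 0.934). Tst, the thiosulfate sulfurtransferase gene, read 117, 45.6 and 6.98 FPKM in DEN+CCl4 liver, against 148, 76.5 and 157 FPKM in Control liver (-1.79, SE 1.00, limma adjusted p = 0.741). Gclc, the catalytic subunit that starts glutathione synthesis from cysteine, lay nearer to Control: it read 32.7, 50.8 and 18.8 FPKM in DEN+CCl4 liver, against 30.2, 37.5 and 42.4 FPKM in Control liver (-0.20, SE 0.92, limma adjusted p = 0.996, named after its values were seen).

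Genes of polyamine metabolism, in which decarboxylated S-adenosylmethionine is used, and of the recovery of its sulfur were the next list. Of 13 tested, 0 were called, and 1 was higher (Smox) and 1 lower (Paox) at an unadjusted p under 0.05. Among all tested genes 2.53% were higher and 5.07% lower at that level. The median log2 fold change of the 13 was 0.08 (0.49 after scaling), against -0.27 (0.01) for all tested genes. Adi1, of methionine salvage, read 62.3, 44.7 and 5.70 FPKM across DEN+CCl4 replicates 1 to 3, against 59.9, 37.6 and 68.8 FPKM across Control replicates 1 to 3 (log2 fold change -1.03, SE 0.94, limma adjusted p = 0.996). Srm, spermidine synthase, read 10.01, 22.5 and 4.19 FPKM in DEN+CCl4 liver, against 9.48, 7.95 and 11.1 FPKM in Control liver (0.08, SE 0.73, limma adjusted p = 0.998). Of the 6 serine genes 3 were tested and 0 called, with 0 at an unadjusted p under 0.05. Sds, serine dehydratase, read 620.4, 126 and 4.19 FPKM in DEN+CCl4 liver, against 274, 369.8 and 314 FPKM in Control liver (-2.10, SE 1.07, limma adjusted p = 0.666), highest in DEN+CCl4 replicate 1 and lowest in replicate 3. Sdsl, its relative, read 10.1, 5.12 and 1.73 FPKM in DEN+CCl4 liver, against 6.78, 6.52 and 7.09 FPKM in Control liver.

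**Figure D4:**
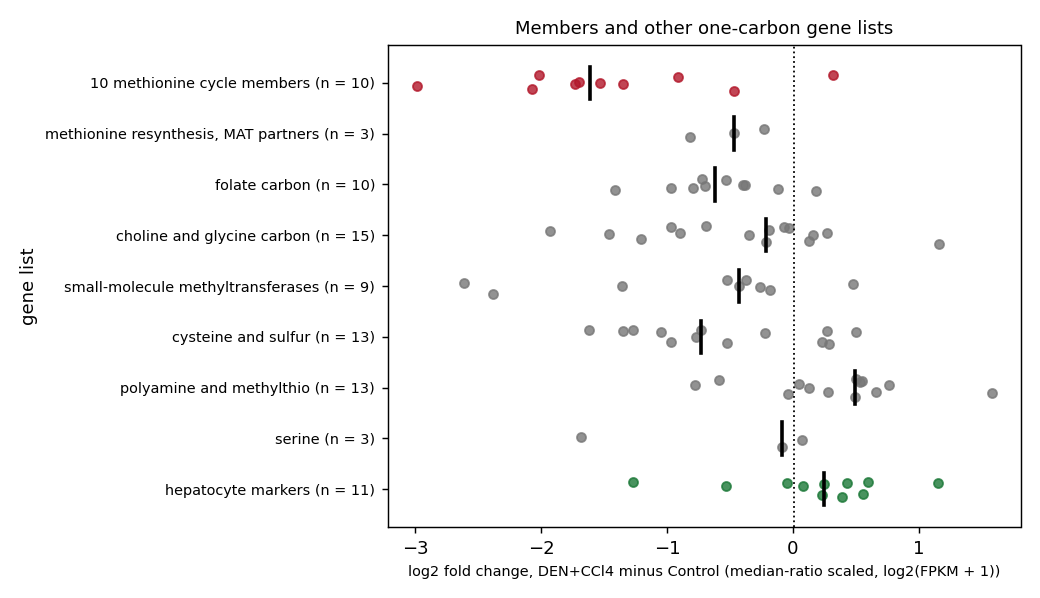
Log2 fold change (DEN+CCl4 minus Control, median-ratio scaled, log2(FPKM + 1)) of each tested gene in the 10 members, in 7 other one-carbon lists and in the hepatocyte markers, with the list median as a bar and the median of all tested genes (0.01) as a dotted line. The member median is -1.61, the lowest of the lists shown, and those of the polyamine genes (0.49) and hepatocyte markers (0.25) lie above 0.01. The added 1 shrinks the values of low genes, so the list medians are not fully comparable.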

How the data were processed

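Poly(A) RNA of 6 mouse livers was measured by RNA-seq. The authors deposited FPKM, per the file headers, with 1 value per gene and sample. HISAT, StringTie and GRCm38 are named in the submitters' processing notes. No version, annotation or strand setting is named there. The table holds no counts, so depth is unknown and no counting interval is given. Since FPKM is relative to the mapped total, abundant mitochondrial transcripts lower the values of all other genes.

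The 8528 genes averaging 1 FPKM or more were tested on log2(FPKM + 1) with limma 3.58.1 in R 4.3.3 (empirical Bayes with trend, two-sided, no covariates, Benjamini-Hochberg over all tested genes, threshold 0.05). Ratios (pseudocount 0.01) and summed levels had exact permutation tests (scipy 1.17.1), which with 3 against 3 cannot go below p = 0.1. The limma script was also run on simulated data, in which no library was shifted as DEN+CCl4 replicate 3 was. Gene positions are from GENCODE M21 (GRCm38) and promoters from RefSeq (GRCm38.p6). Shared words were 31 bases long.

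The members, lists and alternatives were chosen with earlier results of these data known. The rule for named genes took all 10 members, the 2 most abundant genes of each other list when none passed the threshold, and the 2 nearest genes in profile (not all are printed). Mat2b, Shmt2, Mtr, Ttr, single cell type markers and genes named for an unadjusted p were added after their values were seen. The alternatives were other pseudocounts (0.1 and 0.01), filters, scalings, limma settings, a replicate block, and each library left out.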

Additional observations from a re-analysis of the deposited data

How the results depend on the processing

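Members lower in the limma test numbered 0 in the main setting, 1 with a filter of 5 FPKM, and 0 to 5 when 1 library was left out (0 to 6 with median-ratio scaling too). Members higher numbered 0 throughout. Over the 22 alternatives, 200 of 219 member fold changes kept their sign and side of the threshold, 12 came to pass it and 7 changed sign. Sizes moved more: values ran from -3.0 to -0.37 for Mat1a, -3.65 to -0.71 for Gnmt, -3.54 to -0.76 for Ahcy, -4.74 to -1.40 for Bhmt, -2.40 to -0.70 for Bhmt2, -2.03 to -0.21 for Cbs, -3.10 to -0.69 for Cth and -3.06 to -0.80 for Pemt. The lowest was without DEN+CCl4 replicate 1 and the highest with array weights for all 8. Mat2a turned to -0.40 without DEN+CCl4 replicate 1 (-0.11 with scaling), -0.01 without Control replicate 1 and -0.22 without Control replicate 2 (-0.03 with scaling). Shmt1 turned to 0.03 with array weights and 0.14 without DEN+CCl4 replicate 3. When 1 library was left out, Mat2a ran from -0.40 to 0.85 and Shmt1 from -1.31 to 0.14. The cause was not tested.

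Over all genes, 55 were lower and 71 higher in the main setting. These counts were 3 and 6 with pseudocount 0.1, 0 and 4 with pseudocount 0.01, 0 and 0 with no filter, 53 and 14 with a filter of 5 FPKM, 0 and 0 with median-ratio scaling, with quantile normalization and without the trend, and 3 and 6 as TPM without mitochondrially encoded genes. They were 134 and 287 with array weights, which rested mostly on Control replicate 3 (weight 11.2) and DEN+CCl4 replicate 1 (3.58). With 1 library left out they ran from 0 to 272 lower and 0 to 120 higher (0 to 366 and 0 to 302 with median-ratio scaling). The highest counts were without DEN+CCl4 replicate 1 and the lowest without DEN+CCl4 replicate 3. Among the 66 other pathway genes 0 were called. With array weights 1 was lower and 1 higher, and with 1 library left out 0 to 6 were lower and 0 to 1 higher (0 to 6 and 0 to 2 with scaling).

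With the replicate number as a block, 32 genes were lower and 62 higher and 0 members were called. Deviations of same-numbered libraries correlated at 0.0716, 0.416 and -0.146 across genes, and those of differently numbered libraries at -0.372 to 0.228. With so few libraries per group, these values cannot show whether the numbers pair the samples. The ratio and sum differences kept their sign under all alternatives: 1.59 to 2.77 for Mat2a to Mat1a, -2.70 to -0.68 for Mat1a to Alb and -3.40 to -1.09 for the sum of the 10 when 1 library was left out. The smallest p that 3 against 3 allows is 0.1, so these tests could not pass 0.05. As a share of FPKM without mitochondrial genes the sum differed by -2.16, and by -1.85 without their nuclear copies too, an alternative chosen after seeing the data (exact permutation p = 0.2).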

Other observations

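Several transcripts of neighbouring pathways were named after their values were seen, and none of those tested passed the threshold. Phgdh, which starts serine synthesis, was below the filter and not tested, at 0.51, 3.67 and 0.91 FPKM across DEN+CCl4 replicates 1 to 3, against 0.08, 0.20 and 0.04 FPKM across Control replicates 1 to 3. Psat1, the next enzyme of that pathway and also not tested, was at 0.15, 2.39 and 1.11 FPKM in DEN+CCl4 liver, against 0.08, 0.03 and 0.04 FPKM in Control liver. For both genes every DEN+CCl4 library was above every Control library without scaling, as was the case for 3.01% of all tested genes. The values are low, and for Psat1 DEN+CCl4 replicate 1 (0.15 FPKM) was close to Control replicate 1 (0.08 FPKM).

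Smox, spermine oxidase, was at 0.44, 7.68 and 2.45 FPKM in DEN+CCl4 liver, against 0.44, 0.35 and 0.56 FPKM in Control liver (log2 fold change 1.28, limma adjusted p = 0.130), level with Control in DEN+CCl4 replicate 1. Chka, choline kinase alpha, was at 0.53, 8.85 and 1.41 FPKM in DEN+CCl4 liver, against 0.47, 1.5 and 0.57 FPKM in Control liver (0.88, limma adjusted p = 0.652). Nnmt, which methylates nicotinamide, was at 56.5, 4.05 and 0.07 FPKM in DEN+CCl4 liver, against 70.3, 17.4 and 37.7 FPKM in Control liver (-2.45, limma adjusted p = 0.138).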
